A study of Mus musculus with 3 samples.

Results

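Of 27998 genes counted in kidney cells of mice treated with folic acid (FA), 10 genes of lipid uptake and cholesterol efflux are described: Nr1h3, Abca1, Abcg1, Apoe, Cd36, Lpl, Fabp5, Plin2, Trem2 and Gpnmb. The set was chosen by measured values: UMIs (unique molecular identifiers, 1 per captured RNA molecule) of Abca1, summed over macrophages, were higher in both Aoah-/- libraries than in the WT library, so the Abca1 values of macrophages are a description of what made the choice. All 10 genes were found in the files and every one had UMIs in macrophages of each library. The study used droplet single-cell RNA sequencing of whole kidneys, without sorting, on day 14 of the FA model, from mice aged 6 to 8 weeks. There were 2 libraries from Aoah-/- mice (replicates 2 and 3), which lack acyloxyacyl hydrolase in all tissues, and 1 library from a WT mouse (replicate 3). All 3 mice received FA, so no untreated kidney is compared here, and with 1 WT library no test across mice was possible.

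Cholesterol and fatty acids reach a macrophage by scavenger receptors such as CD36, by lipase activity at the cell surface and by the engulfment of dying cells. The liver X receptor alpha, encoded by Nr1h3, binds DNA as a partner of a retinoid X receptor and is activated by oxysterols. Abca1, Abcg1 and Apoe are among its best known targets. ABCA1 and ABCG1 are membrane transporters that pass cholesterol to acceptor lipoproteins, and apolipoprotein E is a lipid carrier that macrophages secrete. FABP5 carries fatty acids inside the cell, and perilipin 2 coats lipid droplets. TREM2 is a lipid-sensing surface receptor of tissue macrophages, and GPNMB is a membrane glycoprotein of lysosome-rich, lipid-laden macrophages. In the kidney, proximal tubular epithelial cells (PTECs) take up fatty acids as their main fuel.

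The promoter of Abca1 is shown because it carries the best described binding element of the liver X receptor. Abca1 (ENSMUSG00000015243) lies on the minus strand of chromosome 4, at 53030787 to 53159895 of GRCm38. The 250 bases before its RefSeq start, chr4:53159896-53160145 of GRCm38.p6 on the minus strand, are given with the best match to DR4 in capitals. DR4 is the letters AGGTCA repeated in 1 direction with 4 bases between them, searched on both strands.
Abca1: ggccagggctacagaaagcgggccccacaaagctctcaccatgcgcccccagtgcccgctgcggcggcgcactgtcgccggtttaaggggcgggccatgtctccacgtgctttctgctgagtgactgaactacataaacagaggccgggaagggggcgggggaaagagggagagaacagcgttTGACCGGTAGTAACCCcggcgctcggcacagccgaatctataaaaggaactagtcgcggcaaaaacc
Read on the other strand, the 16 bases in capitals have 3 mismatches to DR4, and a match with 3 or fewer mismatches was present in 21.9% of the 32851 promoter windows of 300 bases. The window also holds the E-box CACGTG, which 7.15% of the windows hold. RefSeq windows were at hand for 7 of the 10 genes. In the windows of Apoe, Trem2, Gpnmb, Nr1h3, Plin2 and Cd36 the best DR4 match had 4 mismatches, and 76.9% of all windows held a match with 4 or fewer.

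Plin2 and Cd36 held a closer match to DR1, the same repeat with 1 base between, that is bound by peroxisome proliferator-activated receptors. The matches are shown in the direction of the repeat, at chr4:86670272-86670284 and chr5:17835947-17835959 of GRCm38.p6, both on the strand opposite to the gene.
Plin2: AGGTCAGGGGTCC
Cd36: AAGTCAGAGGCCA
Each has 2 mismatches, and 3.86% of all windows held a DR1 match with 2 or fewer. These are matches of letters only, and binding was not measured.

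The libraries held 23072 to 25516 barcodes and 158551992 to 167222984 UMIs, and 18202 to 21368 cells were kept in each. Aoah itself, the deleted gene, checks the labels: in macrophage-like cells it stood at 3.81 and 4.30 CPM (UMIs of the gene per 1000000 UMIs of the class) in Aoah-/- replicates 2 and 3 and at 19.3 CPM in the WT library. The smallest barcodes had 500 UMIs in Aoah-/- replicate 2 and in the WT library but 1672 in Aoah-/- replicate 3, so small barcodes of that mouse were not analysed here. Between 109 and 117 barcodes were shared by a pair of libraries among the kept cells. Clusters were named from markers, none of which is among the 10 genes, and the 10 genes were left out of the clustering. The macrophage-like class held 1643, 1355 and 1712 cells of Aoah-/- replicate 2, Aoah-/- replicate 3 and the WT library, and values are given in this order throughout. Of its 12 markers (C1qa, Csf1r, Adgre1 and others), 12, 11 and 11 had UMIs, with a summed level of 13410, 15080 and 13220 CPM. Peritoneal macrophage-like cells, in a cluster led by Saa3, Fn1, Slpi and Prg4, formed a class of their own with 1401, 17 and 78 cells, and were kept apart because nearly all came from 1 library.

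Across the cell classes, the genes fell into different places. Among the other 18 named classes Trem2 and Apoe were highest in macrophage-like cells, where the lowest library stood above the highest library of the next class, the monocyte-like cells. Trem2 was at 161 to 306 CPM in macrophage-like and at 30.7 to 39.0 CPM in monocyte-like cells. Apoe was at 14241 to 23208 CPM in macrophage-like and at 2281 to 2830 CPM in monocyte-like cells. Macrophage-like cells held on average 76.2% of all Trem2 UMIs of the kept cells, 72.5% of those of Gpnmb and 64.3% of those of Apoe.

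**Figure D1:**
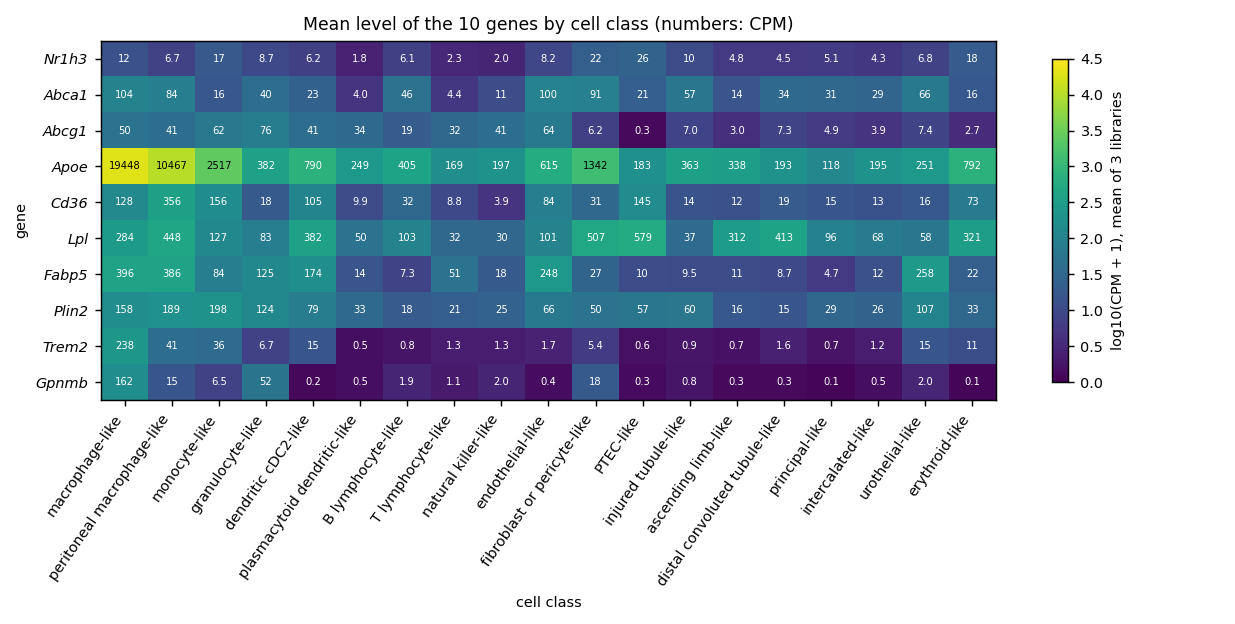
Mean level of each gene (rows) in each cell class (columns) over the 3 libraries, as numbers in CPM and as colour on a log10(CPM + 1) scale. Apoe and Trem2 peak in macrophage-like cells, Lpl and Nr1h3 in PTEC-like cells, and Cd36 is highest in the peritoneal macrophage-like column.

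Lpl and Nr1h3 had their highest means in PTEC-like cells, which held 70.7% and 70.9% of their UMIs. Nr1h3 stood there at 24.8, 25.5 and 26.8 CPM, and Lpl, lipoprotein lipase, at 579, 587 and 572 CPM. Both ranges overlapped those of fibroblast- or pericyte-like cells, at 15.6 to 29.5 CPM for Nr1h3 and 376 to 607 CPM for Lpl. In the WT library fibroblast- or pericyte-like cells stood above PTEC-like cells in both genes. Cd36 was spread over monocyte-like (142 to 178 CPM), PTEC-like (106 to 165 CPM) and macrophage-like cells (115 to 142 CPM), whose ranges overlapped. PTEC-like cells still held 66.4% of the Cd36 UMIs, as they were the most numerous class. Abcg1 was highest in granulocyte-like (53.8 to 95.2 CPM), endothelial-like (61.5 to 66.7 CPM) and monocyte-like cells (58.7 to 67.7 CPM), and it was at 0.497 CPM or less in PTEC-like cells. Plin2 was highest in monocyte-like cells, at 182 to 207 CPM, and its range overlapped that of macrophage-like cells.

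Abca1 was not restricted to macrophages. Its mean over the libraries was 104 CPM in macrophage-like, 99.5 CPM in endothelial-like and 90.8 CPM in fibroblast- or pericyte-like cells, and these ranges overlapped. Urothelial-like cells followed at 54.0 to 75.4 CPM and injured tubule-like cells at 55.4 to 60.6 CPM. The macrophage values of Abca1 chose the set, so the first place of macrophage-like cells is a description. In the WT library macrophage-like cells stood at 59.5 CPM, below fibroblast- or pericyte-like (123 CPM) and endothelial-like cells (90.2 CPM). Monocyte-like cells, by contrast, stood at only 15.8, 14.4 and 17.4 CPM, below PTEC-like cells at 23.4, 21.4 and 18.0 CPM. Because PTEC-like cells were numerous, they held more of the Abca1 UMIs (28.1% on average) than macrophage-like cells did (14.8%).

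**Figure D2:**
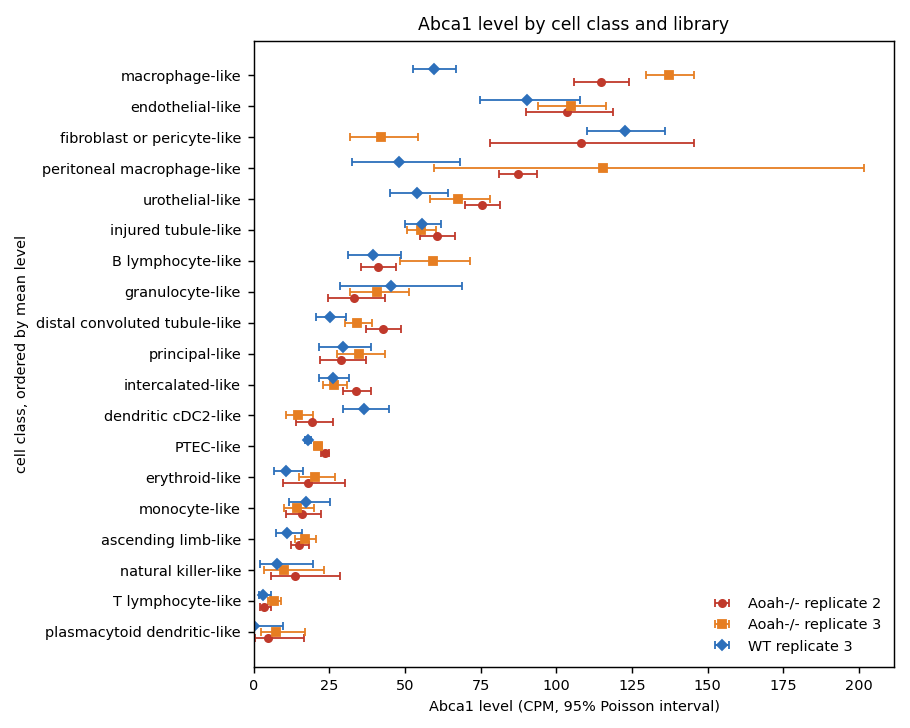
Abca1 level in CPM (horizontal axis) in each cell class (vertical axis, ordered by the mean), 1 point per library with its 95% Poisson interval. In macrophage-like cells, whose values chose the set, the Aoah-/- libraries sit at 115 and 137 CPM and the WT library at 59.5 CPM. The libraries lie close together in endothelial-like and injured tubule-like cells. Both Aoah-/- libraries lie above the WT library in other classes too, such as erythroid-like cells (17.9, 20.3 and 10.75 CPM) and distal convoluted tubule-like cells (42.6, 34.3 and 25.3 CPM). They lie below it in some, such as cDC2-like cells (19.3, 14.6 and 36.5 CPM).

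The genes with the most similar pattern were taken over 57 points (19 classes in 3 libraries) as the Pearson r of log2(CPM + 10). Points of a library share depth and free RNA, so these values describe the data only. Apoe was closest to the complement genes C1qb, C1qa and C1qc (r of 0.90, 0.90 and 0.89), which were also among the markers used for naming. Trem2 was closest to Fcgr1 (0.91), Aif1 (0.875) and C3ar1 (0.87), and Trem2 and Apoe had an r of 0.86 with each other. Abca1 had a looser set of neighbours, Anxa3 (0.76), Fblim1 (0.75) and Vat1 (0.74), and its r with Abcg1 was 0.067. Gpnmb went with Pla2g15, a lysosomal phospholipase, at 0.73, Hpgds at 0.73 and Ms4a7 at 0.72. Plin2 went with Hacd4, Ly96 and Cd14 (0.87 to 0.84), Fabp5 with Cdkn1a, Marcksl1 and Hacd4 (0.81 to 0.79), and Abcg1 with Slfn2, Rhog and Srgn (0.90 each). Cd36 went with Tmem106a, Cd302 and Plxna4os1 (0.83 to 0.78), Lpl with Fcgrt, Crat and Anpep (0.75 to 0.66) and Nr1h3 with Papss2 and Renbp (0.77 and 0.75).

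The study's central comparison is that of Aoah-/- with WT mice. A gene was called when both Aoah-/- libraries differed from the WT library by at least 1.5-fold in 1 direction, among genes with a mean of at least 10 CPM. The mean is over the 3 libraries, so a gene below 10 CPM in 1 genotype can pass through the other. In macrophage-like cells 4 of the 10 genes were called higher (Abca1, Trem2, Fabp5 and Gpnmb) and 0 lower, where 4.29% of the 7211 genes compared were called higher and 0.763% lower. Abca1 was the reason for the choice, so its call is not a result. Without it, 3 of 9 genes were called higher and 7 of 9 stood above the WT library in both Aoah-/- libraries, as did 60.7% of all genes. The 9 genes too were chosen with earlier results of these data known, so these counts are a description. The median log2 ratio of the Aoah-/- mean over the WT library was 0.59 over these 9 genes and 0.17 over all genes, so the ratios of single genes are read against 0.17.

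Nr1h3, the receptor, did not separate the genotypes. It stood at 10.5, 13.3 and 11.8 CPM in macrophage-like cells, with the WT library between the Aoah-/- libraries (log2 ratio 0.01 ± 0.24, SD between the 2 Aoah-/- libraries). In cells thinned to 1000 UMIs, 0.909%, 0.812% and 0.703% of macrophage-like cells held an Nr1h3 UMI, against 0.425%, 0.215% and 0.778% of tubular cells outside the proximal tubule (intercalated-like, distal convoluted tubule-like and ascending limb-like cells together). At this depth the WT share was not above that of the tubular cells.

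For the transporters, the macrophage values of Abca1 chose the set, so its gap to Abcg1 is a description. Abca1 was at 115 CPM (95% Poisson interval 106 to 124), 137 CPM (130 to 146) and 59.5 CPM (52.8 to 66.9). Both Aoah-/- libraries thus lay above the WT library by 1.93- and 2.31-fold (log2 ratio 1.08 ± 0.18). Abcg1 was at 51.9, 54.0 and 44.6 CPM, a log2 ratio of 0.25 ± 0.04, close to the shift of all genes.

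The Abca1 level was carried by many cells. UMIs of Abca1 were found in 309, 429 and 150 macrophage-like cells, and the 10 cells with the most UMIs held 16.8%, 16.1% and 21.9% of them. After thinning to 1000 UMIs, 8.08% (exact 95% interval 6.46 to 9.96), 9.59% (8.08 to 11.3) and 3.99% (2.78 to 5.53) of the cells held an Abca1 UMI. These shares rest on the cells whose Abca1 UMIs made the choice and are a description. The share was 3.34%, 2.19% and 1.65% in the tubular cells and 0.243%, 0.392% and 0.0952% in T lymphocyte-like cells. Thinning left out 653, 0 and 859 shallower macrophage-like cells, and without thinning the shares were 18.8%, 31.7% and 8.76%.

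Apoe did not reach the rule in Aoah-/- replicate 2. It was at 20896, 23208 and 14241 CPM, so the Aoah-/- libraries stood 1.47- and 1.63-fold above the WT library (log2 ratio 0.63 ± 0.11). Apoe UMIs were found in 92.5%, 93.0% and 81.2% of thinned macrophage-like cells. Apoe RNA outside macrophages differed by class. In the tubular cells it was at 262, 320 and 129 CPM and was called higher (1.17% of genes called higher there and 0.7% lower), and 16.4%, 26.3% and 9.44% of thinned tubular cells held an Apoe UMI. Both Aoah-/- libraries lay below the WT library in endothelial-like cells, at 516, 554 and 776 CPM, and in urothelial-like cells, at 104, 274 and 373 CPM, and the same order held in monocyte-like and cDC2-like cells. The part of free RNA in the macrophage values was not tested.

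Of the uptake genes, neither Cd36 nor Lpl was called. Cd36 was at 126, 142 and 115 CPM (log2 ratio 0.22 ± 0.12). Lpl was at 292, 349 and 213 CPM, 1.37- and 1.64-fold above the WT library (log2 ratio 0.59 ± 0.18). An Lpl UMI was found in 17.7%, 18.8% and 11.1% of thinned macrophage-like cells, which is no more than the 20.8%, 19.8% and 23.5% of the tubular cells and above the 2.91%, 2.91% and 2.48% of T lymphocyte-like cells. The part of RNA from tubular cells in the Lpl values was not tested.

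Fabp5 and Gpnmb were called higher with a wide gap between the Aoah-/- libraries. Fabp5 was at 308, 680 and 201 CPM (1.53- and 3.38-fold, log2 ratio 1.29 ± 0.81), and Gpnmb at 87.0, 349 and 51.3 CPM (1.70- and 6.80-fold, log2 ratio 2.09 ± 1.42). In both genes Aoah-/- replicate 3 was the high library, and Aoah-/- replicate 2 lay nearer to the WT library than to it.

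Gpnmb was a matter of few cells. Its UMIs lay in 26 of 1643, 90 of 1355 and 16 of 1712 macrophage-like cells, and the 10 highest cells held 92.5%, 68.6% and 96.3% of them, with up to 492 UMIs in a single cell. After thinning, 1.11% (0.556 to 1.98), 3.91% (2.94 to 5.09) and 1.06% (0.484 to 1.99) of the cells held a Gpnmb UMI, so that only Aoah-/- replicate 3 stood apart. The same held for Fabp5, with 5.25% (3.95 to 6.83), 11.96% (10.3 to 13.8) and 5.04% (3.67 to 6.73) of the cells, and with 61.2%, 51.8% and 65.8% of its UMIs in the 10 highest cells. Of thinned tubular cells, 0.910%, 1.89% and 0.584% held a Fabp5 UMI, and Fabp5 was called higher there too, at 10.4, 14.0 and 6.56 CPM. It passed the 10 CPM filter in the tubular cells only through the Aoah-/- libraries. Mouse Fabp5 has near-identical processed copies in the genome, so its counts are uncertain where reads were shared.

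**Figure D3:**
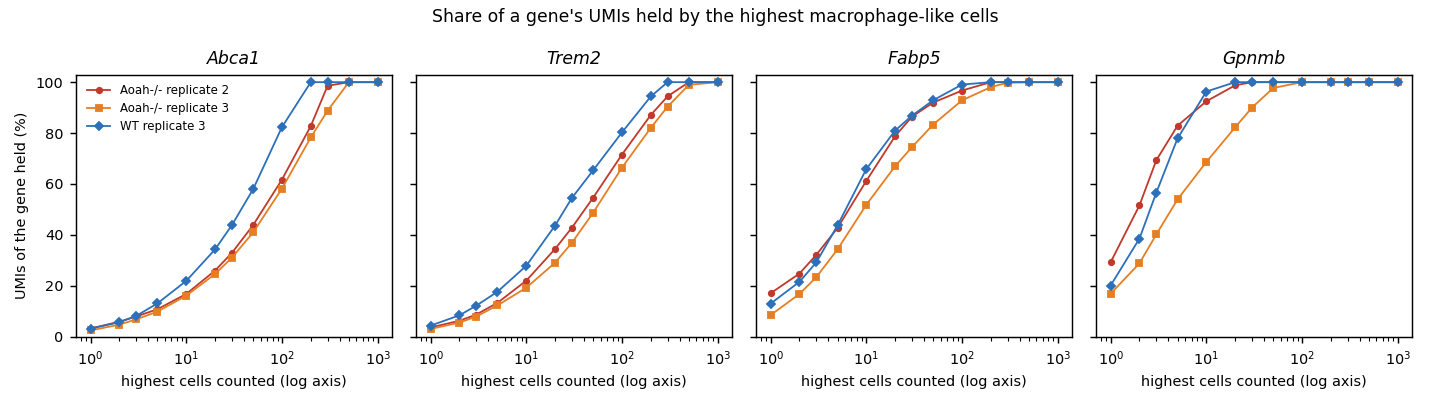
Share of the UMIs of Abca1, Trem2, Fabp5 and Gpnmb (vertical axis, percent) held by the macrophage-like cells with the most UMIs of that gene (horizontal axis, number of cells, log axis), 1 line per library. For Gpnmb the 10 highest cells hold 68.6% to 96.3%, for Abca1 16.1% to 21.9%.

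Trem2, the lipid receptor, was called higher. It was at 248, 306 and 161 CPM (1.54- and 1.90-fold, log2 ratio 0.78 ± 0.22). Its UMIs lay in 376, 527 and 243 cells, and 13.03% (11 to 15.3), 14.9% (13.1 to 16.9) and 7.50% (5.83 to 9.48) of thinned cells held one, against at most 0.344% of the tubular cells. Plin2, the droplet coat, was at 131, 190 and 152 CPM with the WT library between the others (log2 ratio 0.08 ± 0.38).

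**Figure D4:**
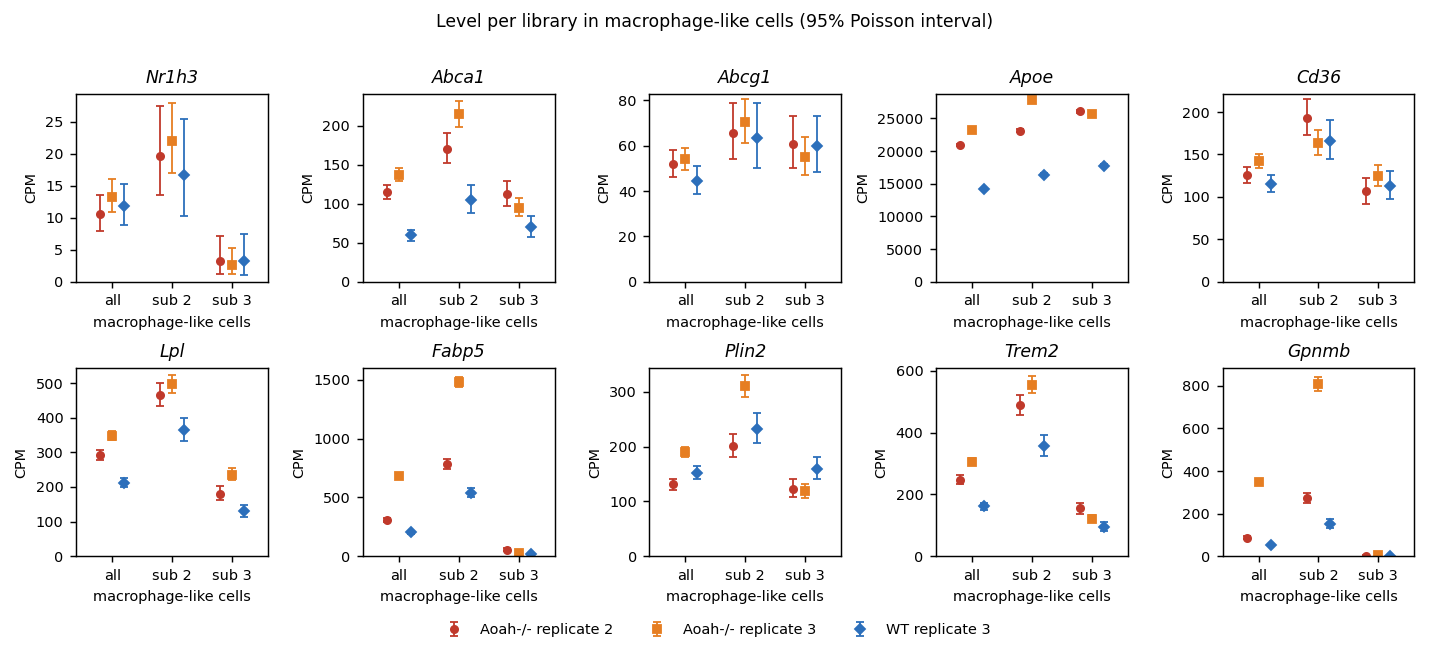
Level of each gene in CPM (vertical axes, each from 0) in all macrophage-like cells and in subclusters 2 and 3, 1 point per library with its 95% Poisson interval. Abca1, Apoe, Trem2, Lpl and Fabp5 of both Aoah-/- libraries lie above the WT library in all macrophage-like cells and in both subclusters. The macrophage values of Abca1 chose the set and are a description. Gpnmb is near 0 in subcluster 3, and Plin2 does not separate the genotypes in all macrophage-like cells.

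The macrophage-like class was not made up alike in the libraries. Subcluster 0, with a median of 676 UMIs and PTEC genes such as Kap and Miox among its leading genes, held 37.0%, 3.25% and 47.8% of the macrophage-like cells. The median UMI total of the class was 1606, 4640 and 997.5. Granulocyte marker RNA in the class was at 155, 202 and 713 CPM, PTEC marker RNA at 5875, 4930 and 7335 CPM and haemoglobin RNA at 179.8, 1044 and 4006 CPM. Their part in the differences was not tested, so the 2 subclusters with little PTEC marker RNA are given on their own.

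Subcluster 2 was named lysosomal-like, from 7 of 11 markers at 2-fold or more, and was led by Mfge8, Il1rn, Mmp12, Vat1 and Spp1. The name is only the label of a marker list that also holds genes of other kinds, such as Spp1, Arg1, Mmp12 and Pdpn. Lysosome content was not measured. It held 208, 313 and 130 cells. Subcluster 3 was led by the heat shock and early response genes Dnajb1, Hspa1b, Hspa1a, Jun and Egr1 and by Ccl3 and Ccl4, kept no name, and held 462, 614 and 407 cells. Among cells with at least 1672 UMIs, subcluster 2 made up 25.2%, 23.1% and 19.7% of the macrophage-like cells, and the interval of the WT library (16.7 to 22.9) overlapped those of both Aoah-/- libraries (22.2 to 28.3 and 20.9 to 25.4).

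Gpnmb, Fabp5 and Trem2 were concentrated in subcluster 2. Its cells held 98.8%, 83.1% and 78.7% of the macrophage UMIs of Gpnmb and 79.9%, 78.0% and 71.3% of those of Fabp5. They held 62.0%, 65.2% and 59.1% of those of Trem2 and 46.8%, 56.1% and 47.0% of those of Abca1. Apoe and Abcg1 were spread over both subclusters. Apoe had 34.8%, 43.1% and 30.6% in subcluster 2 and 41.7%, 39.8% and 41.3% in subcluster 3, and Abcg1 had 39.9%, 46.9% and 37.7% in subcluster 2 and 39.2%, 36.5% and 44.3% in subcluster 3. In the WT library as in the others, subcluster 2 stood above subcluster 3 in Abca1 (105 against 70.6 CPM), Trem2 (357 against 95.3 CPM) and Lpl (366 against 129 CPM).

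Within subcluster 2, Abca1 was at 171, 215 and 105 CPM (1.62- and 2.04-fold) and Gpnmb at 273, 808 and 152 CPM (1.80- and 5.32-fold). Of the 9 genes other than Abca1, 1 was called higher, Gpnmb, where 6.78% of genes were called higher and 1.68% lower. Gpnmb UMIs lay in 21 of 208, 65 of 313 and 13 of 130 cells, and the 10 highest cells held 93.7%, 69.6% and 97.9% of them. Abca1 passed the rule too, in part of the cells that made the choice. Trem2, at 488, 556 and 357 CPM, was 1.37- and 1.55-fold above the WT library and was not called there, since replicate 2 missed 1.5-fold, and Fabp5, at 782, 1478 and 539 CPM, missed the rule with 1.45-fold in Aoah-/- replicate 2. Granulocyte marker RNA in subcluster 2 was at 331, 436 and 2579 CPM, highest in the WT library, and its part in these values was not tested. In thinned cells, 16.0% (11.3 to 21.8), 13.7% (10.1 to 18.1) and 6.15% (2.69 to 11.8) held an Abca1 UMI, and the intervals of both Aoah-/- libraries overlapped that of the WT library.

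Within subcluster 3, Abca1 was at 112, 95.3 and 70.6 CPM and was not called, with 1.59- and 1.35-fold. Only Fabp5 was called, at a low level of 54.9, 27.3 and 15.9 CPM, where 5.96% of genes were called higher and 0.872% lower. Of its 101 UMIs in Aoah-/- replicate 2, 86.1% lay in 10 cells. Apoe stood at 26059, 25742 and 17767 CPM, 1.47- and 1.45-fold above the WT library, and 97.8%, 99.0% and 88.7% of thinned cells held an Apoe UMI. Trem2 was at 154, 121 and 95.3 CPM, and Plin2 was on the other side, at 123, 118 and 160 CPM. Nr1h3 was at 3.26, 2.67 and 3.18 CPM and Gpnmb at 1.09, 2.67 and 0 CPM, both below the 10 CPM needed for a comparison.

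The other subclusters with at least 40 cells in each library also had Abca1 higher, but in profiles that were shifted or mixed. They are part of the cells that made the choice, so their Abca1 calls are not a result. The counts of genes called here include Abca1. In subcluster 0 Abca1 was at 62.1, 188 and 9.01 CPM, where 26.3% of genes were called higher and 2.34% lower, and 5 of 9 genes were called higher. Of these, Abcg1 was at 36.0, 0 and 12.02 CPM and passed in Aoah-/- replicate 3 only through the floor of 3 UMIs. In subcluster 4, led by Ccl17 and with haemoglobin genes, Abca1 was at 40.1, 43.5 and 4.81 CPM, with 2 of 7 genes called higher and 1 lower. There 20.1% of all genes were called higher and 5.78% lower. These Abca1 levels rest on few UMIs, as subcluster 4 held 0.949% of 632, 0.435% of 1150 and 0.353% of 283 macrophage UMIs of Abca1. The shares of subcluster 0 were 4.9%, 1.8% and 2.1%. In subcluster 1, led by PTEC genes, Abca1 was at 55.7, 91.4 and 29.4 CPM, where 8.77% of genes were called higher and 4.41% lower. No gene of the set other than Abca1 was called there.

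As a reference for the macrophage genes, 9 of the 12 macrophage markers stood above the WT library in both Aoah-/- libraries in all macrophage-like cells (median log2 ratio 0.23), 6 of 12 in subcluster 2 (0.11) and 5 of 12 in subcluster 3 (0.11). Of all genes, 60.7%, 48.05% and 51.2% stood above it in these 3 sets. Markers with UMIs in every library ranged from -0.04 (C1qb) to 0.61 (Csf1r) in all macrophage-like cells. The range was -0.22 (C1qb) to 1.185 (Mertk) in subcluster 2 and -0.54 (Cd14) to 0.55 (Csf1r) in subcluster 3. The log2 ratio of Apoe was 0.63, 0.64 and 0.54 in the 3 sets, within the marker range in subclusters 2 and 3. That of Abca1, whose macrophage values chose the set, was 1.08, 0.87 and 0.56.

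The wider lipid genes were counted from 7 lists with 102 genes, 101 of which are in the files. In macrophage-like cells, 75 passed the filter on low values, 8 were called higher and 0 lower, beside 4.29% and 0.763% of all genes, with a median log2 ratio of 0.36 against 0.17 over all genes. Of the 16 genes of liver X receptor signalling and efflux, 11 were compared and 1 was called, Rxra, the receptor's partner, at 21.1, 23.8 and 13.2 CPM. Of 14 uptake receptors 9 were compared and 2 were called: the scavenger receptor Msr1, at 63.7, 73.1 and 26.9 CPM, and the endocytic receptor Lrp1, at 92.8, 96.3 and 49.4 CPM.

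The lysosomal list of 14 genes gave 1 call of 13 compared, the protease Ctsd, at 1084, 2001 and 669 CPM. The 17 genes of cholesterol synthesis gave 2 calls of 15 compared, among them the sterol sensor Scap, at 13.4, 12.8 and 8.20 CPM. The list of lipid-associated macrophage genes gave 2 calls of 11, Vat1 (37.9, 51.6 and 21.2 CPM) and Atp6v0d2 (15.1, 36.0 and 6.94 CPM). Scap and Atp6v0d2 passed the 10 CPM filter only through the Aoah-/- libraries. Neither the lipid droplet list (8 compared) nor the fatty acid list (8 compared) had a call. Msr1 was called higher in both subclusters as well, at 124, 116 and 70.4 CPM in subcluster 2 and at 34.8, 40.0 and 12.1 CPM in subcluster 3. Rxra, Ctsd, Scap and Vat1 were called in neither subcluster, and Lrp1 and Atp6v0d2 in subcluster 2 alone. Of the lists together, 78 genes were compared in subcluster 2, with 10 called higher and 3 lower (Olr1, Fdps and Mvd). In subcluster 3, 64 were compared, with 6 higher and 2 lower (Pparg and Mmp12). Of all genes, 6.78% were called higher and 1.68% lower in subcluster 2, and 5.96% and 0.872% in subcluster 3.

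In monocyte-like cells 0 of 9 genes compared were called (3.45% of genes were called higher and 2.31% lower). In both Aoah-/- libraries 5 of the 9 stood below the WT library, as did 34.0% of all genes. Abca1 was at 15.8, 14.4 and 17.4 CPM, Trem2 at 30.7, 38.6 and 39.0 CPM and Apoe at 2281, 2440 and 2830 CPM. With 1 WT library, the difference between monocyte-like and macrophage-like ratios was not tested.

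In conventional dendritic cDC2-like cells, 2 genes were called lower of 8 compared (1.48% of genes were called lower and 3.11% higher). Apoe was at 368, 211 and 1790 CPM, and Abca1 at 19.3, 14.6 and 36.5 CPM. The macrophage markers summed to 1334, 1322 and 2557 CPM in the same cells, with C1qa at 166, 147 and 576 CPM, and 12, 11 and 12 of the 12 markers had UMIs. The Apoe UMIs lay in 138, 150 and 104 cells, and 10 cells held 68.4%, 58.3% and 68.9% of them. The part of macrophage RNA in the cDC2-like values was not tested.

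In granulocyte-like cells Apoe, Fabp5 and Gpnmb were called higher of 8 genes compared, but 16.9% of all genes were called higher there and 3.69% lower. Gpnmb had 101 UMIs in 24 of 831 cells, 155 UMIs in 22 of 634 cells and 1 UMI in 1 of 218 cells, which is 64.2, 89.9 and 2.07 CPM, the last with an interval of 0.0524 to 11.5. As in macrophage-like cells, 80.2% and 78.1% of the Gpnmb UMIs of the Aoah-/- libraries lay in 10 cells. Gpnmb passed the 10 CPM filter in this class only through the Aoah-/- libraries. Apoe was at 505, 425 and 215 CPM, and C1qa at 81.4, 47.6 and 14.5 CPM beside it, of the 12 macrophage markers 12, 11 and 9 with UMIs and summing to 1754, 1747 and 1340 CPM. Abcg1, with its highest level in this class, was at 79.5, 95.2 and 53.8 CPM, 1.48- and 1.77-fold above the WT library.

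In PTEC-like cells 1 of 7 genes compared was called, Apoe, at 206, 223 and 120 CPM (1.96% of genes called higher and 0.834% lower). Apoe was also called higher in the tubular cells used as background, and macrophage markers in PTEC-like cells summed to 81.5, 68.9 and 47.7 CPM beside it. The call did not extend to every PTEC-like cluster. In clusters 3 and 4, led by Spp2 and by Slc5a2, the glucose transporter of the early proximal tubule, Apoe was highest, at 437, 514 and 558 CPM and at 227, 382 and 364 CPM. Both Aoah-/- libraries lay below the WT library in cluster 3 and on either side of it in cluster 4. In cluster 1, led by Slc7a13 of the late proximal tubule, it was at 94.2, 83.7 and 50.7 CPM, and in cluster 9, led by Kap, at 93.8, 96.6 and 41.1 CPM.

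**Figure D5:**
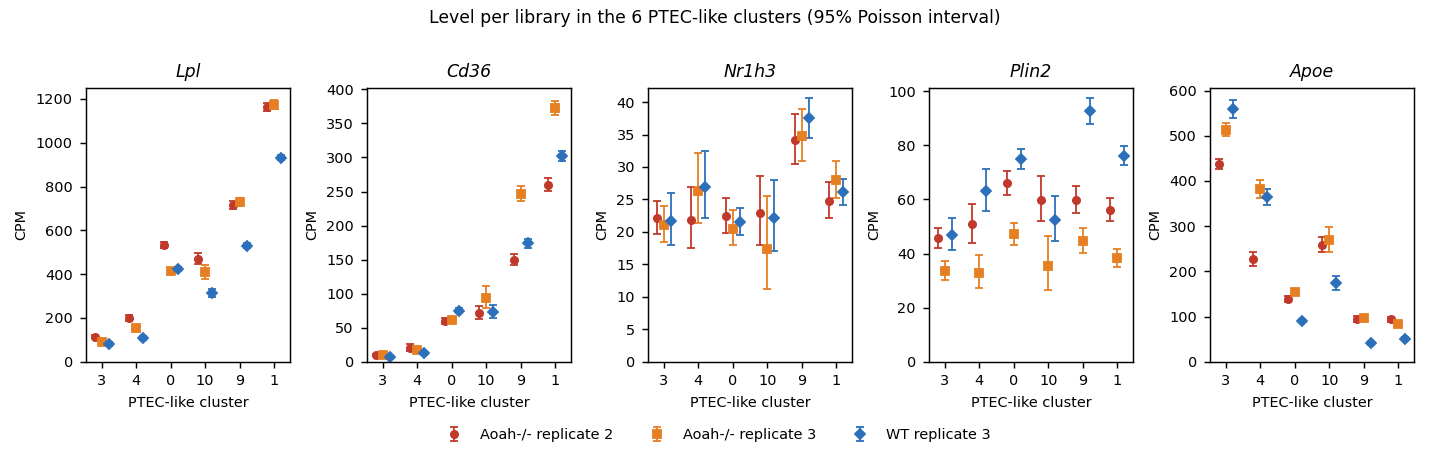
Levels of Lpl, Cd36, Nr1h3, Plin2 and Apoe in CPM (vertical axes, each from 0) in the 6 PTEC-like clusters, 1 point per library with its 95% Poisson interval. Lpl and Cd36 rise from clusters 3 and 4, led by early proximal genes, to cluster 1, led by Slc7a13, while Apoe is highest in clusters 3 and 4.

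Both uptake genes varied along the proximal tubule. Lpl was at 114, 88.2 and 80.3 CPM in cluster 3 and at 1162, 1175 and 932 CPM in cluster 1. Cd36 was at 9.5, 9.2 and 6.6 CPM in cluster 3 and at 260, 372 and 302 CPM in cluster 1. Nr1h3 was even by comparison, from 17.3 to 37.5 CPM over the 6 clusters and 3 libraries.

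For Lpl, the sum over PTEC-like cells and the values within clusters differed. The class values were 579, 587 and 572 CPM, and in 5 of the 6 clusters both Aoah-/- libraries lay above the WT library. In cluster 9 Lpl was at 716 (Poisson interval 699 to 734), 730 (712 to 748) and 529 CPM (518 to 541), and in cluster 4 at 198, 152 and 108 CPM. The exception was cluster 0, at 532, 416 and 424 CPM. Cluster 1, where Lpl is highest, held 8.75%, 14.9% and 14.6% of the PTEC-like cells, cluster 3, where it is lowest, held 8.22%, 12.5% and 2.92%, and the clusters were found after all libraries had been pooled.

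Plin2 was lower in PTEC-like cells of both Aoah-/- libraries, at 56.4, 39.9 and 75.4 CPM, but only Aoah-/- replicate 3 passed 1.5-fold. In cluster 9 it was at 59.9, 44.7 and 92.7 CPM. Cd36 was lower in Aoah-/- replicate 2 only, at 106, 165 and 165 CPM. Abca1 was at 23.4, 21.4 and 18.0 CPM, a log2 ratio of 0.32 ± 0.09, beside 0.32 ± 0.11 in the tubular cells used as background (29.4, 26.3 and 22.3 CPM). In injured tubule-like cells, which carry Vcam1, Lcn2 and Clu, no gene of 6 compared was called (1.79% of genes called higher and 1.15% lower), and Abca1 was at 60.6, 55.4 and 55.6 CPM.

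In endothelial-like cells 1 of 7 genes was called lower, Cd36, which serves fatty acid transfer across capillaries, at 69.1, 69.9 and 114 CPM (1.38% of genes called lower and 4.24% higher). In cluster 20, led by Fabp4 and Plvap, it was at 74.5, 69.5 and 121 CPM. In cluster 28, led by Plat, Emcn and Ehd3, as glomerular endothelium is, Cd36 had 21, 28 and 3 UMIs in 106, 86 and 26 cells, and the interval of the WT library, 6.35 to 90.0 CPM, held the levels of both Aoah-/- libraries (48.7 and 72.6 CPM). Lpl also marked the difference between these clusters, with 35.1 to 44.5 CPM in cluster 20 and 441 to 549 CPM in cluster 28. Abca1 was at 104, 105 and 90.2 CPM and Fabp5 at 230, 275 and 239 CPM, neither called. The class left out cluster 21, with 423, 452 and 305 cells. It had 11 endothelial markers at 2-fold or more but 0 among its 10 leading genes, so it kept no name. Cluster 8, led by Fabp4 and with 131, 751 and 104 cells, was left out too, as PTEC markers were also high in it. The call of Cd36 thus covers only a part of the endothelial cells.

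In fibroblast- or pericyte-like cells, of 8 genes compared, Apoe was called higher, at 2235, 1342 and 448 CPM. Gpnmb was called lower, at 5.02, 8.53 and 40.3 CPM, and passed the 10 CPM filter only through the WT library. Of the Apoe UMIs, 88.65%, 36.2% and 54.7% lay in 10 cells. This class varied widely between libraries in general, since 13.7% of genes were called higher and 11.2% lower. It held 85, 294 and 386 cells, of which the Dcn- and Col3a1-led cluster 36 gave 33, 175 and 363. The macrophage markers summed to 799, 596 and 156 CPM there, higher where Apoe was higher, and their part was not tested. The Gpnmb UMIs of the WT library, 116 in 85 of 386 cells, were spread over the cells, unlike those of macrophage-like cells, with 24.1% in the 10 highest.

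Apoe was also called in T lymphocyte-like cells and in several tubular classes, but not in B lymphocyte-like (254, 533 and 427 CPM) or natural killer-like cells (110.5, 402 and 79.0 CPM). In T lymphocyte-like cells it was at 218, 212 and 77.3 CPM, the only call of 5 genes (2.17% of genes called higher and 0.746% lower). It was called higher in ascending limb-like (332, 463 and 220 CPM, 2.65% of genes called higher), distal convoluted tubule-like (241, 239 and 97.3 CPM, 1.42%), intercalated-like (204, 273 and 106 CPM, 1.37%) and principal-like cells (109, 201 and 43.7 CPM, 2.61%) as well. Apoe in these cells thus moved in the same direction as in macrophage-like cells, and the part of free RNA was not tested.

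The remaining calls were scattered. Cd36 was called lower in ascending limb-like cells (9.01, 8.00 and 19.6 CPM, 3.34% of genes called lower) and distal convoluted tubule-like cells (12.5, 14.5 and 29.2 CPM, 0.871%), and Fabp5 higher in intercalated-like cells (13.9, 15.9 and 5.69 CPM, with 0.795% of genes called lower). Plin2 was called lower in B lymphocyte-like cells, at 14.8, 12.4 and 27.9 CPM (3.86% of genes called higher and 2.88% lower), and in plasmacytoid dendritic-like cells, at 27.6, 21.8 and 49.6 CPM (7.99% and 6.78%), where Lpl was called higher. Natural killer-like cells had Lpl higher and Fabp5 lower (8.26% and 4.01%). Erythroid-like cells had Abca1 and Apoe higher (13.9% and 0.734%), urothelial-like cells had Trem2 lower (2.68% and 2.62%), and principal-like cells had no gene lower (1.72%). The Lpl calls rest on few UMIs, with 24, 14 and 7 in natural killer-like and 20, 55 and 9 in plasmacytoid dendritic-like cells. Fabp5 in natural killer-like cells was at 11.8, 10.0 and 30.8 CPM. Trem2 in urothelial-like cells was at 5.20, 6.90 and 33.8 CPM. It passed the 10 CPM filter only through the WT library, as Cd36 did in ascending limb-like cells. Fabp5 in intercalated-like cells passed only through the Aoah-/- libraries. The part of free RNA in these values was not tested.

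Peritoneal macrophage-like cells are given as values only, because Aoah-/- replicate 3 had 17 of them. Cd36 was at 317, 433 and 319 CPM, with a higher mean than in any other class, and Plin2 at 188, 144 and 234 CPM. Apoe was at 7080, 7387 and 16935 CPM, below the macrophage-like cells in the Aoah-/- libraries and above them in the WT library. Abca1 was at 87.2, 115 and 48.0 CPM, a description only, since Abca1 in macrophages chose the set. Peritoneal macrophage-like cells held 14.8%, 0.254% and 0.898% of the Abca1 UMIs of the kept cells.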

How the data were processed

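UMIs of kidney cells were counted in 3 libraries, 2 from Aoah-/- mice and 1 from a WT mouse, all given FA and taken on day 14. The authors deposited raw UMI counts per gene and barcode. The submitters' processing notes name Cell Ranger 3.1.0, STAR, Seurat 4.2.0 and mm10, while the matrix headers name cellranger 6.1.2. Kidneys were digested with collagenase IV and erythrocytes were lysed before capture.

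Barcodes under 200 genes or above 50% mitochondrial UMIs were removed. Doublets were not removed from the main values. Cells of all libraries were clustered together with scanpy 1.11.5 (2000 variable genes, 50 principal components, 15 neighbours, Leiden resolution 1), with 122 genes left out, the 10 genes and the lipid lists among them. Of 39 clusters 30 were named from markers, which covered 89.1% of the kept cells. For each class of a library, UMIs of a gene were added up and divided by the class total (CPM), with exact Poisson 95% intervals. Intervals cover counting error only. A gene at 0 was set to a floor of 3 UMIs before a ratio was taken. Shares of cells were taken after thinning to 1000 UMIs, with exact Clopper-Pearson intervals. Promoter windows were 250 bases before and 50 after RefSeq starts. The calling rule was checked on simulated Poisson counts with changes larger than 1.5-fold. The simulated counts held no spread between mice, so the check does not cover that spread. Python 3.11.15, numpy 2.4.6, pandas 2.3.3, scipy 1.17.1, python-igraph 0.11.9 and matplotlib 3.10.9 were used.

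The 10 genes, the markers and the lists were chosen with earlier results of these data known. Named were the 10 genes, the lipid-list genes called in macrophage-like cells, and the 3 genes most similar to each of the 10. Of these, 2 genes are not reported here. Other genes named were chosen after their values were seen. Alternatives changed the cell filter, doublets, clustering, scaling, fold, composition and libraries.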

Additional observations from a re-analysis of the deposited data

How the results depend on the processing

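In macrophage-like cells the log2 ratio of Abca1, 1.08, is a description, since it chose the set, and its sign over re-cuts of the same cells is no support. It was 0.72 with at most 20% mitochondrial UMIs, 0.78 with at least 500 genes, 0.80 with at least 1672 UMIs per cell, 1.80 as a mean over cells and 1.30 with the subclusters weighted equally. Among settings chosen after seeing the data, it was 0.78 in subclusters 2 and 3 together, 0.87 in subcluster 2 and 0.56 in subcluster 3. Leaving out an Aoah-/- library gave 0.95 to 1.21.

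The count of genes called higher in macrophage-like cells, 4 with Abca1 included, was less stable. It was 1 with at least 500 genes, with subclusters weighted equally, with peritoneal macrophage-like cells included and in subcluster 3. It was 2 with at least 1672 UMIs, at resolution 2, with median-ratio size factors and in subcluster 2. It was 0 with a call at 2-fold, and 4 to 6 without either Aoah-/- library. Gpnmb was -0.023 in subcluster 3, with 2, 8 and 0 UMIs, where the sign comes from the floor of 3 UMIs set for the WT library. Abcg1 ranged from -0.045 to 0.61, Nr1h3 from -0.46 to 0.43 and Plin2 from -0.41 to 0.32. Apoe (0.28 to 0.70), Lpl (0.40 to 0.87), Trem2 (0.45 to 0.97), Fabp5 (0.61 to 1.94) and Cd36 (0.03 to 0.48) were above 0 in all 18 settings. The settings re-cut the same libraries, so a constant sign is no support for these genes either. The median over all genes was itself 0.17 in the main setting. The cause of these changes was not tested.

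In PTEC-like cells 1 gene was called lower without either Aoah-/- library (1 to 1, against 0), but not the same gene. Cd36 was at 0.64- and 1.00-fold of the WT library in Aoah-/- replicates 2 and 3, and Plin2 at 0.75- and 0.53-fold. In endothelial-like cells the counts were 1 higher and 0 lower with at most 20% mitochondrial UMIs, and 0 lower at resolution 2 and with each library clustered alone. The class held 851, 1057 and 588 cells at resolution 2 and 1098, 847 and 768 with each library clustered alone. In the main setting it held 548, 734 and 360. Leaving out an Aoah-/- library gave 0 to 1 higher and 1 to 2 lower. No paired analysis was possible because the groups share only replicate number 3. With 1 WT library, the spread among WT mice is unknown and the genotype and the mouse cannot be told apart. The higher UMI minimum of Aoah-/- replicate 3 limits comparisons of cell shares, and free RNA limits low levels.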
